A study of Mus musculus with 21 samples.

Results

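The comparison covers mouse lung epithelial cells at postnatal day 7 (P7) and postnatal day 28 (P28). The members were chosen by their labelled cell type and stage: 2 libraries at P7 and 2 at P28, which is 4 of the 21 libraries of the series. Both groups came from C57BL/6 mice carrying the Col1a2-GFP transgene, a fluorescent reporter of fibroblasts that make collagen I, and no treatment is labelled for either. The cells were sorted live as positive for Epcam and negative for GFP and for 4 lineage markers, namely CD31 for endothelium, CD45 for leukocytes, Ter119 for red cells and CD146 for vessel wall cells. Poly(A) RNA was amplified and measured with 3'SAGE-seq, a method that counts transcripts by tags from their 3' ends, on an Ion Proton sequencer. The labels number the replicates of a stage without saying that they came from separate animals. The p-values therefore reflect only the variation among these libraries, and that variation may be technical. The question is which genes changed in the epithelium between the first week after birth and weaning age.

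The air sacs of the lung are lined by type 2 cells, which are cuboidal and secrete surfactant, and by type 1 cells, which are thin and carry gas exchange. The conducting airways are lined mainly by secretory club cells and by ciliated cells. In the mouse, septa are still dividing the air spaces in the first week after birth, and by weaning most of this growth has ended and the lung has met inhaled microbes and particles.

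The 4 libraries held 2792499 to 5602529 reads, with 16564 to 17580 genes above 0 in each. The top 10 genes by value made up 14.0% to 17.0% of each library. Values are the deposited ones, normalised per library, and are given in the order replicate 1, replicate 2. A count of 0 in both libraries of a stage allows up to 3 reads, a mean value of 0.336 at P7 and 0.495 at P28. These floors cover counting error only, and the labels describe no molecular identifiers for the amplified reads. Of 23869 genes listed, 2975 were at 0 in all 4 libraries. The 12143 genes with a value of at least 3 in 2 or more of the 10 epithelial libraries were tested with limma on log2(value + 1), with the other epithelial stages used for the spread only. Log2 changes are P28 minus P7 on that scale, where the added 1 shrinks the change of low genes. A gene is called changed at an adjusted p below 0.05.

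Of the 12143 genes tested, 884 (7.28%) were called, 591 (4.87%) of them higher at P28 and 293 (2.41%) lower. The median log2 change over all genes tested was -0.03. The P7 and P28 libraries did not overlap in any of the 884 called genes. At least a 2-fold change on the fitted scale was seen in 536 of the genes that rose and 217 of those that fell. No read was found at P7 for 106 of the genes that rose, while 6 of the genes that fell had no read at P28. Of the 591 rises, 155 were among 475 genes that passed the filter only through the P28 libraries. Such genes would not have been tested without their P28 values, so their calls support nothing about direction. Fewer genes were called with 1 library left out: 481 without P7 replicate 1, 561 without P7 replicate 2, 498 without P28 replicate 1 and 439 without P28 replicate 2. Of the 175 called genes that the naming rule picks out, 98 were called without each library in turn.

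**Figure D1:**
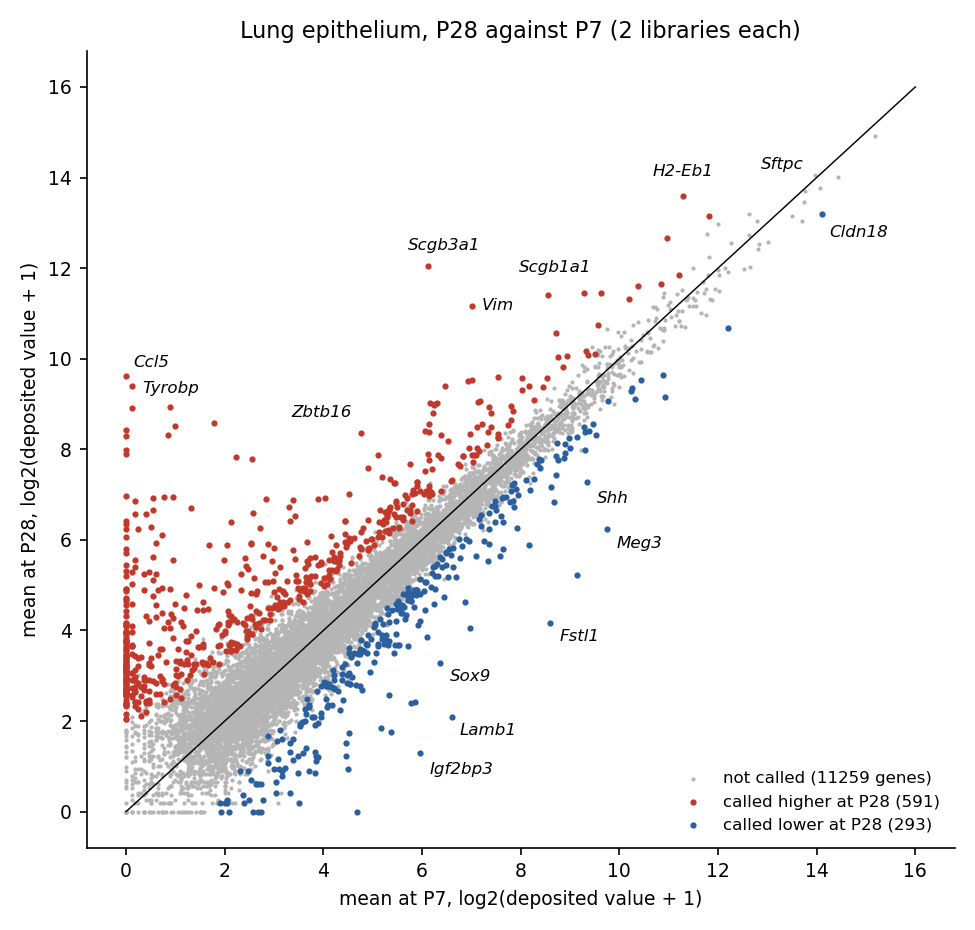
Mean deposited value of each of the 12143 genes tested, P7 on the horizontal and P28 on the vertical axis, both as log2(value + 1), means of 2 libraries each; red points (591) were called higher and blue points (293) lower at P28, and the line marks equal values. Leukocyte genes such as Ccl5 and Tyrobp stand on or beside the vertical axis at the top left, with almost no signal at P7, and Igf2bp3, Lamb1 and Fstl1 stand lowest below the line among the genes named.

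Although the gate removed CD45-positive cells, the P28 libraries carried transcripts of leukocytes and the P7 libraries carried few. Ptprc, which encodes CD45, was at 0 in both libraries at P7 and at 12.4 and 21.3 at P28, at least 50.1-fold higher (adjusted p = 0.000697). Ptprc passed the filter only through these P28 values, so its call supports nothing about direction. Of 13 pan-leukocyte genes tested, 11 were called higher and none lower, with a median log2 change of 3.06. Of these 13, 7 passed the filter only through the P28 libraries. The values of the 14 pan-leukocyte genes listed summed to 152 and 96.8 at P7 and 2333 and 2398 at P28. Tyrobp, an adaptor for activating receptors on myeloid cells and natural killer cells, stood at 0.187 and 0 at P7 and 703 and 642 at P28 (log2 change 9.27, SE 0.54, adjusted p = 8.06e-08). Laptm5, a lysosomal membrane protein of blood cells, was at 1.12 and 0.560 and then at 558 and 425 (log2 change 8.07, SE 0.46, adjusted p = 6.94e-08). Both P28 libraries held these transcripts at similar levels.

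The leukocyte genes present at P28 did not follow 1 lineage. Ccl5, a chemokine of T and natural killer cells and of other leukocytes, had no read at P7 and was at 870.0 and 705 at P28, at least 2343-fold higher. Cd3d, a subunit of the T cell receptor complex, was at 70.3 and 33.1 at P28, and the natural killer receptor gene Klrd1 at 78 and 83.8, both with no read at P7. However, Cd3e, Cd3g and Lck were each below a value of 1 in all 4 libraries. All 4 T and natural killer cell genes that passed the filter were called higher, while 9 of the 13 listed were below it. Of the 4, 1 passed only through the P28 libraries. Ms4a1, the B cell antigen CD20, was at 0 and 0.839 at P7 and 65.3 and 88.4 at P28, and 3 of 4 B cell genes tested were called higher, or 1 to 3 without a library, with Cd37 and Ly6d lost without P7 replicate 1 and without P28 replicate 2. Of these 4 B cell genes, 2 passed the filter only through the P28 libraries. Dendritic cell genes were called higher in 7 of 8 tested, and 6 of the 8 passed the filter only through P28. They included Ccl22 (312 and 316 at P28, no read at P7), Ccr7 (0 and 0.280 at P7, 36.3 and 56.2 at P28) and the growth factor receptor gene Flt3 (9.65 and 15.6 at P28, no read at P7).

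Macrophage genes were mixed, with more of them higher than lower at P28. Of 12 tested, 4 were called higher and 1 lower, and 3 of the 12 passed the filter only through P28. The median log2 change of the 12 was 1.34, against -0.03 over all genes tested. Of the 19 listed, 11 had no read at P7 and 0 had no read at P28. The higher calls numbered 4 without P7 replicate 1 and 2 without each of the other libraries in turn. The macrophage and monocyte list summed to 818 and 733 at P7 and 518 and 391 at P28, since its most abundant member, Ly6c2, fell. Ly6c2, which has a close copy in Ly6c1, was at 771 and 708 at P7 and 392.3 and 239 at P28 (log2 change -1.27, SE 0.25, adjusted p = 0.00567), a call lost without P7 replicate 1 (adjusted p = 0.0565) and without P28 replicate 2 (adjusted p = 0.121). Chil3 and Clec7a, the latter a receptor for fungal glucan, had no read at P7 and were at 11.97 and 16.99 and at 12.7 and 13.8 at P28. C1qa and Fcgr3 were also called higher, but both calls were lost under limma without the mean-variance trend. Marco, Mrc1, Siglecf and Adgre1, which mark lung macrophages, stayed at a value of 1.93 or below in each of the 4 libraries. Of 7 neutrophil genes tested, Il1b and Slfn2 were called higher, both also made by other leukocytes. S100a8 and S100a9, the abundant granule genes of neutrophils, reached only 1.16 and 0.576 and 3.09 and 0.864 at P28.

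Markers of other cells that the gate should remove differed in level. None of 5 endothelial genes tested was called by limma or by edgeR, and 0 had an unadjusted p below 0.05. Cdh5, Cldn5, Emcn and Plvap had no read in any of the 4 libraries. However, the 14 endothelial genes listed summed to 186 and 207 at P7 and 225 and 162 at P28. Of these 14, 9 had 3 or fewer reads at P7 and 9 at P28. Pecam1, which encodes CD31, was at 0.374 and 0 at P7 and 2.32 and 0.288 at P28, and Mcam, which encodes CD146, at 0.747 and 0.560 and then 0 and 0.576. The haemoglobin genes Hba-a1, Hba-a2, Hbb-bs and Hbb-bt were called higher. Hbb-bs was at 22.97 and 134 at P7 and 517 and 525 at P28 (log2 change 3.20, SE 0.71, adjusted p = 0.0112). All 4 haemoglobin calls were lost without P7 replicate 1 and without P28 replicate 2, and these near-identical copies can share reads. Col1a2 itself was at 8.22 and 11.2 at P7 and 3.48 and 4.32 at P28 and was not called (adjusted p = 0.116). The 16 mesenchymal genes listed summed to 13833 and 13221 at P7 and 11621 and 9994 at P28, mostly from Sparc, which was at 13630.4 and 13028 at P7 and 9309.9 and 7599 at P28 and was not called. Among 13 mesenchymal genes tested, Mfap4 and Col1a1 were called lower and Vim and Mgp higher, and Col1a1 was not called without P28 replicate 2 (adjusted p = 0.0856). The median log2 change of the 13 was -1.07, and edgeR called 4 lower and 3 higher. Vim, the intermediate filament vimentin of mesenchymal cells and leukocytes, was at 137 and 118 at P7 and 2271 and 2346 at P28 (log2 change 4.17, SE 0.17, adjusted p = 3.96e-09). Msln, a mesothelial surface protein, fell from 34.7 and 8.95 to 1.16 and 3.46 (log2 change -2.60, SE 0.46, adjusted p = 0.00213), a call lost without P28 replicate 1 (adjusted p = 0.0727).

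**Figure D2:**
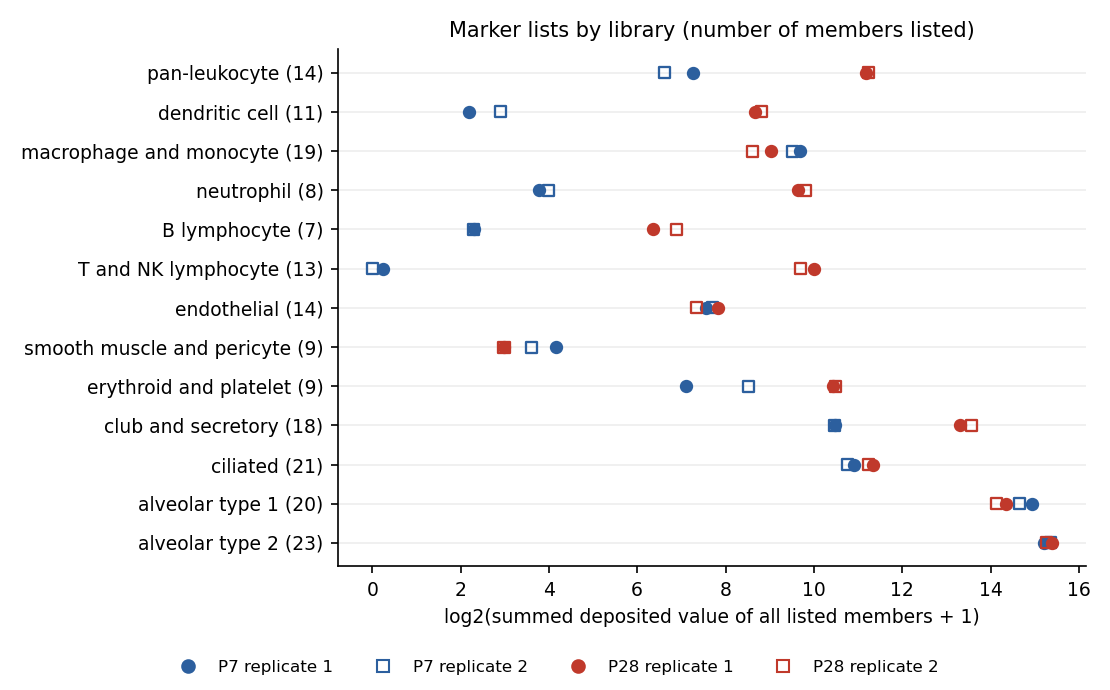
Summed deposited value of the listed members of 13 marker lists in each of the 4 libraries, as log2(sum + 1); blue symbols are P7 and red symbols P28, filled circles replicate 1 and open squares replicate 2, with the number of genes listed in brackets. The leukocyte lists other than the macrophage list, and the club cell list, stand apart between the stages, with both P28 libraries far to the right, while the alveolar type 2 sums overlap.

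In sorted bulk libraries, fewer cells of a type and less RNA per cell cannot be told apart, and this holds for each cell type described here. Of the 591 genes called higher, 38 are in a marker list of leukocytes or of other cells outside the epithelium. How far leukocyte RNA enters the other rises, and mesenchymal RNA the falls, was not tested.

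The 15 largest rises among the called genes whose higher stage averaged 50 or more were led by the leukocyte genes. In order, they included Ccl5, Tyrobp, Il1b, Slfn2, Ccl22, Laptm5, Rgs1, Timd4, Scgb3a1, Cd53, Gpr132, Havcr2, Ramp3 and Fmnl1, with log2 changes of 9.61 to 6.68. Il1b, the interleukin 1 beta gene, was at 0.187 and 0 at P7 and 418 and 543 at P28. Timd4 and Havcr2, members of the TIM family of immune receptors, had no read at P7 and were at 241 and 231 and at 108 and 139.7 at P28. Scgb3a1, a secretoglobin of airway secretory cells, was the epithelial gene in this group. It was at 136 and 1.68 at P7 and 3217 and 5212 at P28, so the P7 libraries lay far apart while both P28 libraries were above them (log2 change 7.74, SE 1.19, adjusted p = 0.00075). Ramp3, a partner of the calcitonin-like receptor, was at 3.18 and 1.68 at P7 and 359 and 401 at P28.

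The 15 largest falls were of another kind. In order, they included Igf2bp3, Lamb1, Fstl1, Rian, Meg3, Slit3, Aqp1, Sox9, Lox, Col18a1, Dennd3, Sox12, Shh and Nnat, from a log2 change of -4.68 to -1.94. All 15 were called without each of the 4 libraries in turn. Fstl1, a secreted follistatin-like glycoprotein needed for lung development, was at 381 and 386 at P7 and 15.8 and 18.1 at P28, a 22.6-fold fall (log2 change -4.42, SE 0.18, adjusted p = 3.96e-09). Slit3, a guidance ligand, was at 46.5 and 67.99 at P7 and 2.70 and 6.05 at P28. Lox, which cross-links collagen and elastin, was at 144 and 104 and then 16.99 and 14.4. The rule that chose these genes required both P28 libraries to lie below both P7 libraries.

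**Figure D3:**
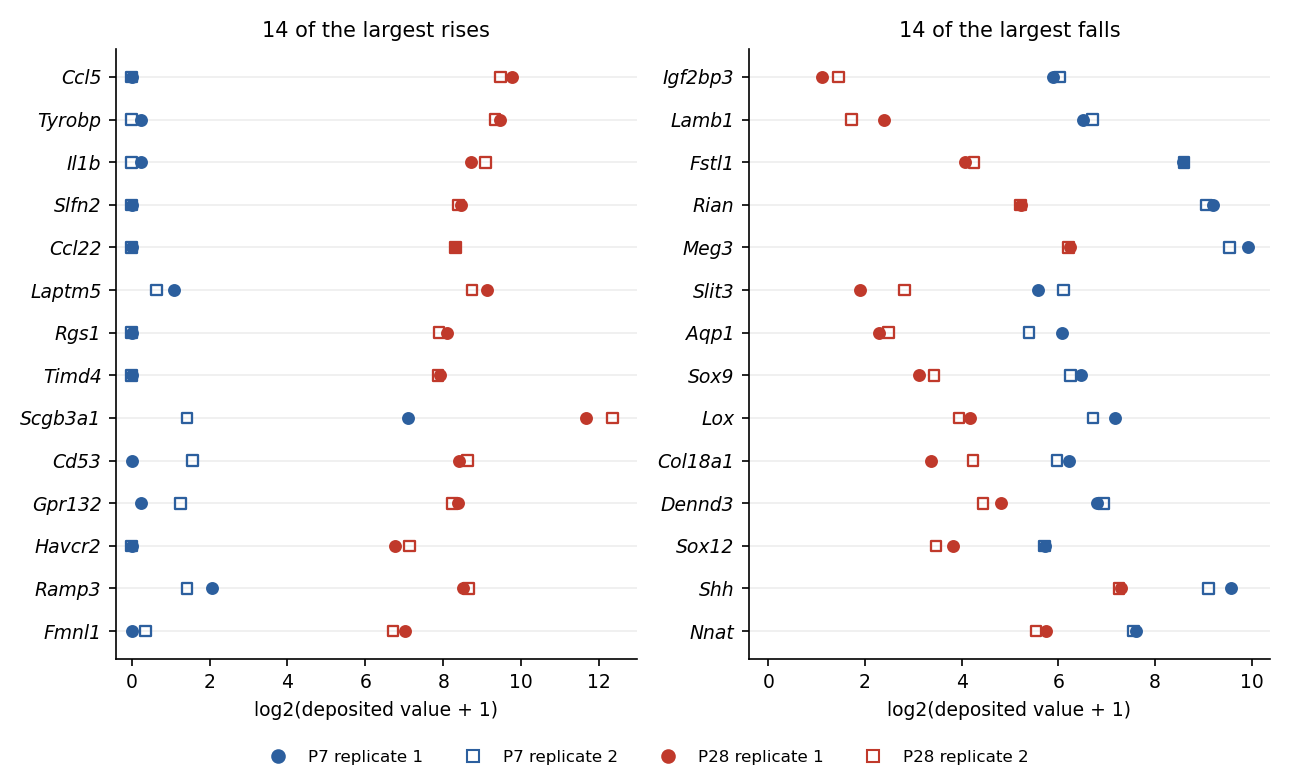
Values of 14 of the 15 largest rises (left) and 14 of the 15 largest falls (right) in each of the 4 libraries, as log2(deposited value + 1); blue is P7 and red P28, filled circles replicate 1 and open squares replicate 2. The stages are separate in each gene shown, which the choice of genes required. The P7 values of Scgb3a1 are 136 and 1.68, the widest spacing of a pair in the plot.

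General epithelial genes were present at both stages. Of 18 tested, none was called by limma and 8 had an unadjusted p below 0.05, with a median log2 change of -0.39; edgeR called 1 of them lower, and limma called 2 lower without P28 replicate 1 and 1 without P7 replicate 2. Epcam, the sort gene, was at 67.1 and 354 at P7 and 79.2 and 239.9 at P28, so it differed more between the replicates of a stage than between the stages (adjusted p = 0.936). Cdh1, which encodes E-cadherin, was at 199 and 182 at P7 and 160.3 and 137 at P28, and keratin 19 (Krt19) at 929 and 909.8 and then 985 and 848. Basal and neuroendocrine cell genes were almost absent, with Krt5, Krt14, Trp63 and Chga at 0 in all 4 libraries.

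Some type 2 cell genes rose and others fell. Of 23 tested, 3 were called higher and 4 lower, or 1 to 2 and 2 to 3 when a library was left out. They had a median log2 change of -0.13, and their values summed to 37768 and 41703 at P7 and 43037 and 39710.4 at P28. The hydrophobic surfactant proteins, which carry the surface film, were not called: Sftpc was at 13388 and 14481 at P7 and 13369 and 13164 at P28 (adjusted p = 0.91), and Sftpb at 6036 and 8059 and then 8685 and 8148 (adjusted p = 0.532). The surfactant collectins, which bind microbes, rose. Sftpa1 (chr14:41131782-41136452 in GRCm38, plus strand) was at 879 and 709 at P7 and 3072 and 2561 at P28, 3.55-fold higher (log2 change 1.83, SE 0.18, adjusted p = 1.45e-05). Its neighbour Sftpd (chr14:41172214-41185149, minus strand) was at 506 and 468 and then 1265 and 855 (log2 change 1.095, SE 0.21, adjusted p = 0.00382), a call lost without P28 replicate 1 (adjusted p = 0.0719). Lyz1, a lysozyme gene with a close copy in Lyz2, was the other type 2 gene called higher, at 2463 and 2250.3 at P7 and 3599 and 3817 at P28 (log2 change 0.65); it was not called without any 1 of the 4 libraries.

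The 4 type 2 genes that fell included 2 of surfactant lipid handling. Lpcat1, the acyltransferase that makes dipalmitoyl phosphatidylcholine, was at 1251 and 1286 at P7 and 535 and 574 at P28 (log2 change -1.19, SE 0.16, adjusted p = 0.000226). Abca3, the transporter that loads lipid into lamellar bodies, was at 462 and 489 and then 258 and 223 (log2 change -0.98, SE 0.17, adjusted p = 0.00158). Both were below their P7 values in each P28 library, and both calls held without each library in turn. The chemokine gene Cxcl15 fell from 1511 and 1280.3 to 752 and 722 and Egfl6 from 397 and 464 to 210.5 and 219. The Cxcl15 call was lost without P7 replicate 1 (adjusted p = 0.0627) and without P28 replicate 2 (adjusted p = 0.0547), and that of Egfl6 without each of 3 libraries (adjusted p up to 0.0853). Prdx6, a peroxiredoxin with phospholipase activity that acts on surfactant lipid, went the other way, at 71.9 and 64.9 at P7 and 242 and 236 at P28 (log2 change 1.79, SE 0.18, adjusted p = 1.45e-05). In the surfactant phospholipid list as a whole, 1 of 18 genes tested (5.56%) rose and 2 (11.1%) fell. The shares over all genes tested were 4.87% and 2.41%.

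Among 20 type 1 cell genes tested, 4 fell and none rose, with a median log2 change of -0.25. The count was 1 without P7 replicate 1 and without P28 replicate 2, 3 without P7 replicate 2 and 2 without P28 replicate 1, and Akap5 was the member called each time. Akap5, an anchoring protein for protein kinase A, was at 81.3 and 77.2 at P7 and 33.6 and 38.3 at P28 (log2 change -1.12, SE 0.20, adjusted p = 0.00298). Cldn18, a tight junction claudin of the alveolar epithelium and the third most abundant gene at P7, was at 19119 and 15967 at P7 and 9943 and 8836 at P28 (log2 change -0.90, SE 0.21, adjusted p = 0.017), a call lost without P7 replicate 1 (adjusted p = 0.141) and without either P28 library (adjusted p = 0.0615 and 0.132). Sema3e, a semaphorin that acts on vessels, was at 279 and 187 and then 114 and 94.5 (log2 change -1.13, SE 0.22, adjusted p = 0.00513), lost without P7 replicate 1 and without P28 replicate 2 (adjusted p up to 0.089). The defining type 1 genes Ager, Hopx, Pdpn and Aqp5 were not called. Ager was at 462 and 353 at P7 and 371 and 232 at P28 (adjusted p = 0.336), and Aqp5 at 1967 and 2231 and then 2721 and 2163 (adjusted p = 0.609).

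Airway genes rose. Of 14 club cell and secretory genes tested, 10 were called higher and 1 lower, with a median log2 change of 2.32, and 8 to 10 were higher when a library was left out. Of these 14, 4 passed the filter only through the P28 libraries. The 18 listed members summed to 1422 and 1417 at P7 and 10168 and 12120.5 at P28. Scgb1a1, the club cell secretory protein (chr19:9083636-9087958, minus strand), was at 341 and 412 at P7 and 2668 and 2766 at P28, 7.23-fold higher (log2 change 2.86, SE 0.32, adjusted p = 4.27e-05). Cbr2, a carbonyl reductase of airway cells, was at 659 and 587 and then 2738 and 2866 (log2 change 2.17, SE 0.18, adjusted p = 2.18e-06). Muc5b, the gel-forming airway mucin, was at 3.92 and 5.60 at P7 and 48.3 and 71.1 at P28 (log2 change 3.39, SE 0.37, adjusted p = 3.33e-05). Hp, which encodes haptoglobin, was at 62.8 and 76.4 and then 436 and 312. In each of these 4 genes both P28 libraries exceeded both P7 libraries several fold. Bpifa1 and Bpifb1, secreted lipid-binding defence proteins, had no read at P7 and were at 6.56 and 10.7 and at 5.79 and 19.3 at P28. Scgb3a2 and Upk3a had no read in any of the 4 libraries. Retnla, a resistin-like secreted protein, was the member that fell, from 9.71 and 16.8 to 3.48 and 2.02 (log2 change -1.91, SE 0.43, adjusted p = 0.0124), and its call held only without P7 replicate 1.

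Ciliated cell genes rose by smaller steps. Of 14 tested, 7 were called higher and none lower, with a median log2 change of 1.35, and edgeR called 9. The count fell to 2 without P7 replicate 1, 4 without P7 replicate 2 and 1 without either P28 library. Foxj1, the transcription factor of motile cilia, was at 37.4 and 41.4 at P7 and 119 and 82.4 at P28 (log2 change 1.31, SE 0.24, adjusted p = 0.0036), a call lost without P28 replicate 1 (adjusted p = 0.0757). Cdhr3, a cadherin-related protein of ciliated cells, was at 8.41 and 15.1 and then 38.6 and 52.4 (log2 change 1.90, SE 0.37, adjusted p = 0.00492), lost without P7 replicate 1 and without P28 replicate 2 (adjusted p up to 0.102). Tppp3, the most abundant member, was at 1836 and 1623 at P7 and 2296 and 2112 at P28 and was not called (adjusted p = 0.267).

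Enzymes that oxidise and conjugate foreign compounds, many of them made by club cells, rose in part. Of 25 tested, 16 were called higher and none lower, while 9 were not called, with a median log2 change of 1.43 and log2 changes of 0.50 to 4.39. The count was 10 without P7 replicate 1, 13 without P7 replicate 2, 9 without P28 replicate 1 and 7 without P28 replicate 2. Cyp2b10 was at 1.68 and 5.04 at P7 and 88.8 and 78.1 at P28, 24.8-fold higher (log2 change 4.39, SE 0.45, adjusted p = 1.87e-05). Cyp2f2, the club cell cytochrome, was at 107 and 151 and then 784 and 699.7 (log2 change 2.54, SE 0.24, adjusted p = 1.19e-05). Cyp4b1 was at 0.934 and 5.32 at P7 and 36.3 and 27.4 at P28 (log2 change 3.22, SE 0.54, adjusted p = 0.00145). Smaller rises were seen in the flavin monooxygenase gene Fmo2, at 26.1 and 20.7 and then 64.5 and 64.5, and in the epoxide hydrolase gene Ephx1, at 9.90 and 16.5 and then 52.9 and 43.8. The glutathione transferases Gsta1, Gsta2 and Gsta3 were also among the 16, and Gsta1 and Gsta2 are near-identical and can share reads. Of the 16, Cbr2, Cyp2f2, Aldh1a1 and Gsta3 are also in the club cell list. Of the 25 tested, 2 passed the filter only through the P28 libraries.

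**Figure D4:**
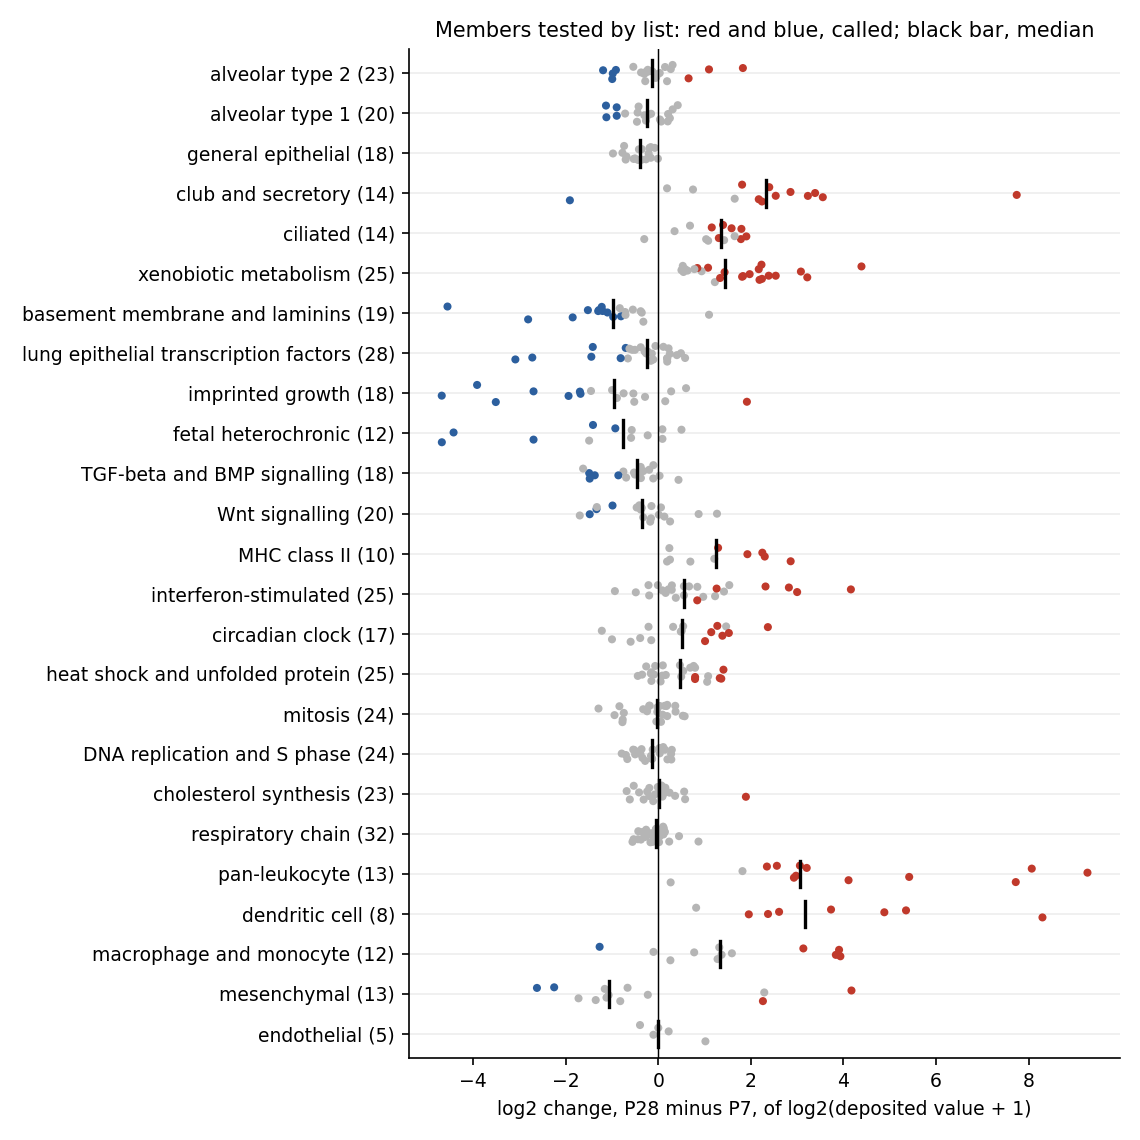
Log2 change of each tested member of 25 lists, on the log2(value + 1) scale; red points were called higher and blue points lower at P28, grey points were not called, and the black bar is the list median. The club, xenobiotic, leukocyte and dendritic lists lie to the right, the basement membrane and imprinted lists to the left, and the mitosis, S phase, respiratory chain and general epithelial lists hold no called member.

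Many genes of the basement membrane, the sheet of laminin, collagen IV and proteoglycan under the epithelium, fell. Of 19 tested, 11 were called lower and none higher, with a median log2 change of -0.97, and 7 to 10 were lower when a library was left out, fewest without P28 replicate 2. The other 8 tested were not called; Nid2, which encodes nidogen 2, was the member with a higher value at P28, at 0 and 1.12 at P7 and 1.93 and 2.30 at P28 (adjusted p = 0.405). The 22 listed members summed to 6603 and 5934 at P7 and 3828 and 3437 at P28. Lamb1, the laminin beta 1 chain (chr12:31265234-31329644, plus strand), was at 90.2 and 104 at P7 and 4.25 and 2.30 at P28, 29.6-fold lower (log2 change -4.55, SE 0.25, adjusted p = 5.92e-08). The chains it can assemble with fell less: Lamc1 was at 106 and 98.5 at P7 and 36.3 and 33.7 at P28 (log2 change -1.52, SE 0.18, adjusted p = 7.25e-05). Lama5 was at 555 and 706 and then 263 and 245 (log2 change -1.30, SE 0.20, adjusted p = 0.000853). Fras1 and Frem2, which form a complex under embryonic epithelia, were at 13.1 and 10.9 and at 12.5 and 16.5 at P7 and at 1.16 and 0.576 and at 3.09 and 3.46 at P28. These 5 genes were called without each library in turn. Col4a1, Col4a4, Lama3, Hspg2 and Agrn were also called lower, with log2 changes of -1.22 to -0.81. Col18a1, the basement membrane collagen that yields endostatin, fell from 73.6 and 61.8 to 9.27 and 17.9 (log2 change -2.30, SE 0.29, adjusted p = 0.000137).

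Several transcription factors of the developing lung fell and none of the 28 tested rose. In all, 6 were called lower, 2 of them without P7 replicate 1 and 3 without P28 replicate 2, and the list median was -0.24. Sox9, a factor of the distal progenitor tips of the embryonic lung, was at 88.2 and 75.3 at P7 and 7.72 and 9.79 at P28, 9.33-fold lower (log2 change -3.09, SE 0.21, adjusted p = 2.87e-07). Elf5, an Ets factor of the distal epithelium, was at 408 and 374 and then 158 and 129 (log2 change -1.45, SE 0.19, adjusted p = 0.000181). These 2 calls held without each library in turn. Mycn, which drives growth of the embryonic epithelium, was at 50.6 and 27.7 at P7 and 6.18 and 3.74 at P28, and its call was lost without P7 replicate 1 and without P28 replicate 2 (adjusted p up to 0.0788). Foxp2 was at 41.5 and 29.9 and then 9.27 and 16.99, lost without P7 replicate 1 and without P28 replicate 1 (adjusted p up to 0.111). Nkx2-1, the factor that defines lung epithelium, fell by a smaller step, from 904 and 833 to 581 and 488 (log2 change -0.70, SE 0.17, adjusted p = 0.0186), and its call held only without P28 replicate 1. Outside the list, Sox12 was at 51.6 and 51.8 at P7 and 13.1 and 10.1 at P28 (log2 change -2.07, SE 0.22, adjusted p = 2.88e-05).

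Imprinted growth genes and fetal RNA-binding protein genes were among the steepest falls. Of 18 imprinted genes tested, 7 were called lower and 1 higher, with a median log2 change of -0.95, and 6 or 7 were lower when a library was left out. Of these, 3 neighbour each other on chromosome 12. Dlk1 (chr12:109452823-109463336), a membrane protein of the Notch ligand family that is expressed from the paternal allele, was at 22.04 and 27.4 at P7 and had no read at P28, at least 49.96-fold lower (adjusted p = 2.29e-08). The maternally expressed long noncoding RNAs Meg3 (chr12:109541001-109571726) and Rian (chr12:109603940-109661716) lie beside it, all on the plus strand. Meg3 was at 977 and 746 at P7 and 74.9 and 73.2 at P28, 11.6-fold lower (log2 change -3.51, SE 0.17, adjusted p = 2.16e-08). Rian was at 587 and 536 and then 36.3 and 36.3, 15.5-fold lower (log2 change -3.91, SE 0.17, adjusted p = 5.15e-09). Genes of both parental alleles in this cluster were thus lower in both P28 libraries.

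Imprinted genes elsewhere moved by smaller amounts. Peg3, a zinc finger protein gene on chromosome 7, was at 14.01 and 13.7 at P7 and 1.16 and 1.44 at P28 (log2 change -2.69, SE 0.33, adjusted p = 0.000118), and Nnat, which encodes neuronatin, at 193 and 188 and then 52.5 and 45.5 (log2 change -1.94, SE 0.18, adjusted p = 7.97e-06). Grb10, an inhibitor of insulin receptor signalling, was at 20.7 and 11.5 and then 4.25 and 4.03, a call lost without P7 replicate 1 and without P28 replicate 2 (adjusted p up to 0.0844). Slc38a4, an amino acid transporter gene, was the imprinted gene called higher (log2 change 1.91), and it was lost without P7 replicate 2 and without P28 replicate 1. Among 12 genes of the fetal programme tested, 5 were called lower and none higher, or 3 lower without P7 replicate 2 and 3 without P28 replicate 2. Igf2bp3, which binds Igf2 and other mRNAs and is typical of fetal tissue, was at 58.1 and 64.1 at P7 and 1.16 and 1.73 at P28, 42.3-fold lower (log2 change -4.68, SE 0.25, adjusted p = 5.61e-08). Its relative Igf2bp1 was low already, at 3.18 and 4.76 and then 1.16 and 0.576, and its call held only without P28 replicate 1. Hmga1, a chromatin protein of growing tissue, was at 656 and 757 at P7 and 438 and 312 at P28 (log2 change -0.93), lost without P7 replicate 2 and without P28 replicate 2 (adjusted p up to 0.115).

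Most genes of the signalling lists were not called. Shh, the hedgehog ligand that the epithelium sends to the mesenchyme, was at 757 and 548 at P7 and 156 and 152 at P28, 4.24-fold lower (log2 change -2.06, SE 0.21, adjusted p = 2.08e-05). Its receptor Ptch1 was at 20.4 and 20.7 and then 6.18 and 10.9 (log2 change -1.22, SE 0.32, adjusted p = 0.032), a call that held only without P28 replicate 2. Among 18 genes of TGF-beta and BMP signalling, 4 were called lower and none higher, or 1 to 2 when a library was left out. Smad6, an inhibitor of BMP signalling, was at 170.0 and 156 at P7 and 71.4 and 46.7 at P28 (log2 change -1.48, SE 0.20, adjusted p = 0.000293) and was the member called each time. Id1, a BMP target, was at 52.7 and 26.3 and then 13.1 and 12.1, lost without P7 replicate 1 and without P28 replicate 2 (adjusted p up to 0.0737). Tgfb3 and Smad7 had log2 changes of -1.37 and -0.86 and were not called without any 1 of the 4 libraries.

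Of 20 Wnt pathway genes, 3 fell and none rose, or 1 to 2 when a library was left out. The receptor gene Fzd2 was at 21.5 and 21.3 at P7 and 8.11 and 6.05 at P28 (log2 change -1.48, SE 0.27, adjusted p = 0.00299), called each time. Axin2, a feedback target of Wnt, was at 45.4 and 40.8 and then 23.9 and 11.2 (log2 change -1.33, SE 0.37, adjusted p = 0.0398), and its call held only without P28 replicate 1. Egfr, the epidermal growth factor receptor, was at 49.3 and 37.5 at P7 and 11.97 and 16.1 at P28 (log2 change -1.56, SE 0.32, adjusted p = 0.00726), lost without P7 replicate 1 and without P28 replicate 1 (adjusted p up to 0.107). In the Notch list, 1 of 14 genes tested rose and 1 fell (7.14% each), against 4.87% and 2.41% over all genes tested. Lfng, a glycosyltransferase that modifies Notch receptors, rose from 23.7 and 17.6 to 95.4 and 74.3 (log2 change 1.99, SE 0.27, adjusted p = 0.000233). The ligand gene Dll4 fell from 52.1 and 36.9 to 16.6 and 6.91 (log2 change -1.93, SE 0.35, adjusted p = 0.00314). The Dll4 call was lost without P7 replicate 1 and without P28 replicate 2. Of 12 YAP target and pathway genes, Ctgf was the 1 called (8.33%), lower, at 610.0 and 328 at P7 and 256 and 193 at P28. Its call held only without P7 replicate 2.

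MHC class II molecules present peptides to helper T cells; type 2 cells make them in the adult lung, and so do dendritic cells, B cells and macrophages. Many class II genes share a Y box in the promoter, which nuclear factor Y binds and which lies beside the site of the RFX complex that recruits the coactivator Ciita. The 160 bases before the start of 3 class II genes that rose are printed because these genes moved together (RefSeq, GRCm38.p6; 5′ to 3′ on the gene's strand). H2-Aa is at chr17:34287824-34287983 on the minus strand, H2-Eb1 at chr17:34305707-34305866 and H2-Ob at chr17:34238745-34238904, both on the plus strand. Capitals mark the Y box core, GATTGG, or its reverse complement CCAATC.
H2-Aa: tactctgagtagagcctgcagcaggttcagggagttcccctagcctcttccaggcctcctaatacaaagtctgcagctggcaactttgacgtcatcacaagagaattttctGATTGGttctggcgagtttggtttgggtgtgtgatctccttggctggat
H2-Eb1: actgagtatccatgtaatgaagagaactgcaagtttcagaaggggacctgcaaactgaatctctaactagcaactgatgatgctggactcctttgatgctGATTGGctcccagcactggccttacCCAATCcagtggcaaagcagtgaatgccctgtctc
H2-Ob: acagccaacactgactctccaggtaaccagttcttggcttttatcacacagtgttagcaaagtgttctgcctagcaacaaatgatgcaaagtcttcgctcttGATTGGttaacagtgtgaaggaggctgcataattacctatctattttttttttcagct
The core lies 49 to 44 bases before the start in H2-Aa, 60 to 55 in H2-Eb1, with another match at 35 to 30, and 58 to 53 in H2-Ob. In the 250 bases before the start, searched on both strands, all 8 class II list genes with a promoter in the table hold it, against 16.6% of 27025 genes in the table (14.56% of 32851 promoters). H2-DMa and H2-DMb1, which were not called, hold the core too. The motif was chosen after the values were seen, and a match is a description, not a site or a cause.

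Of 10 class II genes tested, 5 were called higher and none lower, each time a library was left out as well, and the median log2 change was 1.25. H2-Eb1, the beta chain of the E molecule, was at 2287 and 2693 at P7 and 14006 and 10666 at P28, 4.95-fold higher (log2 change 2.30, SE 0.23, adjusted p = 1.62e-05). The A molecule rose in both chains: H2-Aa was at 79.8 and 85.1 and then 295 and 338 (log2 change 1.93, SE 0.28, adjusted p = 0.000431). H2-Ab1 was at 65 and 73.6 at P7 and 304 and 364 at P28 (log2 change 2.25, SE 0.30, adjusted p = 0.000242). Cd74, the invariant chain that escorts class II to the endosome, was at 408 and 455 and then 993 and 1124 (log2 change 1.29, SE 0.21, adjusted p = 0.00133). H2-Ob, a chain of the DO inhibitor that B cells make, had no read at P7 and was at 6.18 and 6.34 at P28. Of the 10 class II genes tested, 1 passed the filter only through the P28 libraries. Ciita itself was at 35.1 and 34.7 at P7 and 29.3 and 58.2 at P28 and was not called (adjusted p = 0.859). The loading factors H2-DMa and H2-DMb1 were not called either (adjusted p = 0.403 and 0.898). Class II was thus present at P7, when the summed pan-leukocyte value was 152 and 96.8, and rose at P28 together with the leukocyte genes (2333 and 2398); the part of leukocytes in the rise was not tested.

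Class I genes and peptide loading moved less, and 1 of the 18 tested passed the filter only through the P28 libraries. Of 18 tested, 3 were called higher and none lower, or 1 to 3 when a library was left out. Psmb8, a subunit of the immunoproteasome, was at 173 and 162 at P7 and 413 and 479 at P28 (log2 change 1.41, SE 0.18, adjusted p = 0.000158) and was called each time. B2m, the light chain of class I, was at 9.53 and 15.1 and then 27.03 and 36.3, and its call was lost without any 1 of the 4 libraries. H2-Q6 was called too (log2 change 1.99) but not without P7 replicate 2 or without P28 replicate 2, and it can share reads with its close copy H2-Q7.

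Interferon-stimulated genes are switched on by the factor ISGF3 through a response element of paired GAAA blocks. The 160 bases before the start of 4 of them that rose are printed because of their shared rise (RefSeq, GRCm38.p6; 5′ to 3′ on the gene's strand). Ifit1 is at chr19:34640729-34640888 and Ifit3 at chr19:34583369-34583528, both on the plus strand, Isg15 at chr4:156200819-156200978 and Rsad2 at chr12:26456453-26456612, both on the minus strand. Capitals mark GAAA, any 2 bases and GAAA again, or the reverse complement, TTTC, any 2 bases and TTTC.
Ifit1: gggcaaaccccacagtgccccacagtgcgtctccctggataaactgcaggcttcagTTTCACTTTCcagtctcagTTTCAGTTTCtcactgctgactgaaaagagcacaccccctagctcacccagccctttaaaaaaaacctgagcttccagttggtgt
Ifit3: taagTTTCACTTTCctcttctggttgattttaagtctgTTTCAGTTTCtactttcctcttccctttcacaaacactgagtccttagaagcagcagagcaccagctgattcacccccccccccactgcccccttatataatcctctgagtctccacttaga
Isg15: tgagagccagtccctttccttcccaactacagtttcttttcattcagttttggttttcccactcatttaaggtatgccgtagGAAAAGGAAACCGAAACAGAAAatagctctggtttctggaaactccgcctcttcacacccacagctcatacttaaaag
Rsad2: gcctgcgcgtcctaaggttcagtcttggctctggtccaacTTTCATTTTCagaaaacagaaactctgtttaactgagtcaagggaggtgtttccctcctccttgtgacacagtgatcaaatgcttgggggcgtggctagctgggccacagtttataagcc
Ifit1 and Ifit3 hold 2 matches each and Rsad2 holds 1, while the 3 matches in Isg15 overlap each other. In the 250 bases before the start, searched on both strands, 13 of 23 genes of the interferon list with a promoter in the table hold the motif, against 3.463% of all genes in the table (2.977% of promoters). Among these 13 are Bst2, Gbp2, Gbp3, Gbp7, Igtp, Irgm1, Irgm2 and Oas1a, which were not called. This motif, too, was chosen after the values were seen.

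Of 25 interferon-stimulated genes tested, 6 were called higher and none lower, with a median log2 change of 0.55, and 3 to 6 were called when a library was left out, fewest without P28 replicate 2. Ifit1, which binds foreign RNA caps, was at 8.59 and 3.64 at P7 and 112 and 125 at P28, 19.4-fold higher (log2 change 4.16, SE 0.47, adjusted p = 5.08e-05). Isg15, a ubiquitin-like modifier, was at 7.28 and 6.71 and then 61.8 and 49.8 (log2 change 2.82, SE 0.32, adjusted p = 5.16e-05). Ifit3, which has a close copy, was at 14.8 and 8.67 at P7 and 59.1 and 61.9 at P28 (log2 change 2.32, SE 0.30, adjusted p = 0.00016). These 3 were called each time. Rsad2, the antiviral enzyme viperin, was at 1.49 and 0.839 and then 11.2 and 23.04 (log2 change 2.999, SE 0.52, adjusted p = 0.00209), lost without P28 replicate 2 (adjusted p = 0.0649). Stat2 and Parp14 rose by log2 changes of 0.84 and 1.26, and both calls were lost without P7 replicate 1 and without P28 replicate 2, that of Stat2 also without P28 replicate 1. The 19 other members tested were not called, and 3 of the 25 passed the filter only through the P28 libraries. The leukocyte sums rose over the same libraries, and their part in these changes was not tested.

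**Figure D5:**
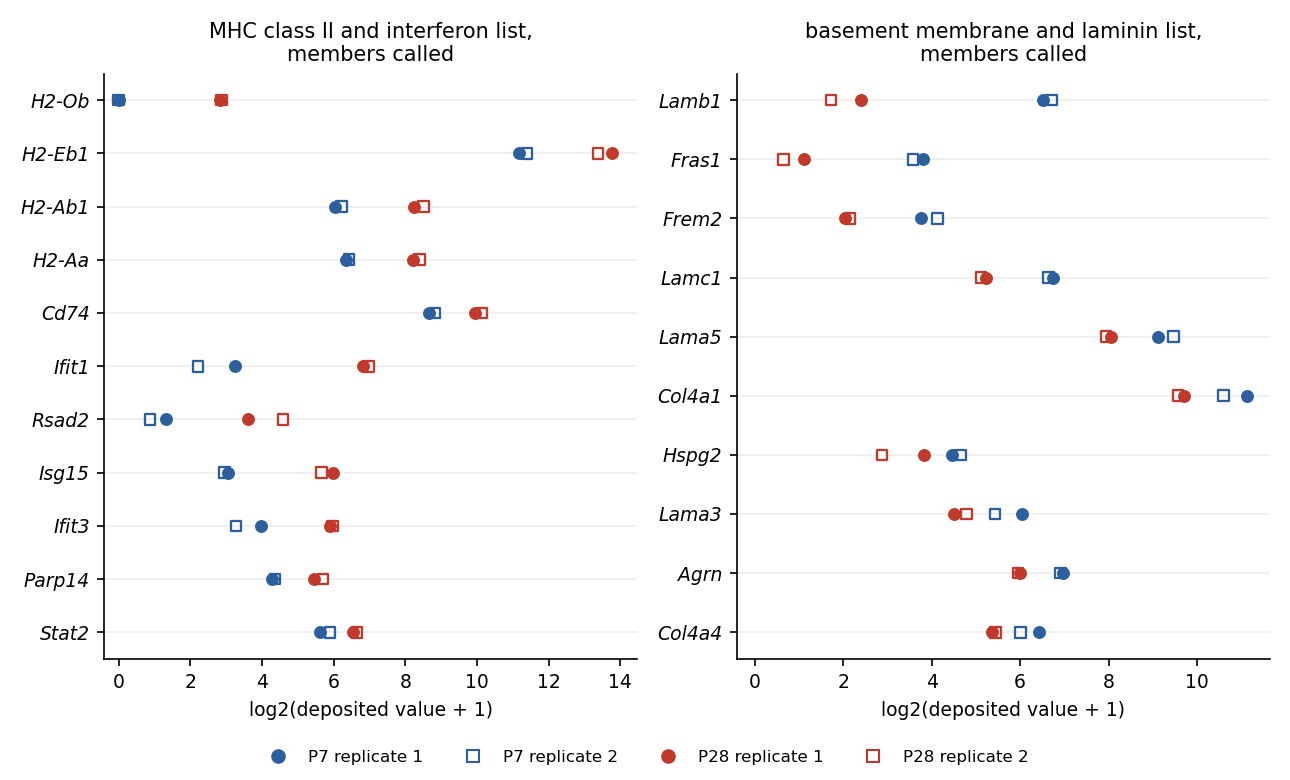
Values in each of the 4 libraries, as log2(deposited value + 1), of the 11 called members of the MHC class II and interferon lists (left) and of 10 of the 11 called members of the basement membrane list (right); blue is P7 and red P28, filled circles replicate 1 and open squares replicate 2. All 11 genes on the left are higher in both P28 libraries and all 10 on the right are lower. The stages were apart in this way in every called gene.

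Other defence genes rose as well, again beside the rise in leukocyte genes, whose part was not tested. Of 18 epithelial host defence genes tested, 7 were called higher and none lower, or 3 to 4 when a library was left out. Beside Sftpa1, Sftpd, Bpifa1 and Lyz1, described above, these were Lyz2, Cd14 and Pigr. Of the 18 tested, 2 passed the filter only through the P28 libraries. Lyz2, a lysozyme of type 2 cells and macrophages, was at 1439 and 1227 at P7 and 3213 and 2998 at P28 (log2 change 1.22, SE 0.19, adjusted p = 0.00075). Pigr, which carries IgA across the epithelium, was at 0.374 and 0.280 and then 4.25 and 4.32, and its call, like that of the endotoxin receptor gene Cd14, was lost without any 1 of the 4 libraries. Of 16 chemokine genes tested, 6 were called higher and 2 lower, or 4 and 0 without P28 replicate 2. Of these 16, 4 passed the filter only through the P28 libraries. Ccl5, Ccl17, Ccl9, Ccl4 and Ccl3 are made by leukocytes, and all 5 had at most a single read over both P7 libraries. Ccl4 and Ccl3 were lost without P28 replicate 2 (adjusted p = 0.0504 and 0.102). None of 9 complement genes was called by limma or edgeR, with 1 at an unadjusted p below 0.05; Hc, which encodes complement C5, was at 2876 and 3795 at P7 and 3563 and 3032 at P28. Ctss, the cathepsin that trims the class II invariant chain, had no read at P7 and was at 77.2 and 91.6 at P28.

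Some genes that follow the time of day or glucocorticoid hormone rose. Of 17 circadian clock genes tested, 6 were called higher and none lower, 2 to 3 when a library was left out. The sampling hour is not given by the labels, so stage and hour cannot be told apart for these genes. Tef, a clock output factor, was at 289.7 and 232 at P7 and 872 and 640.0 at P28 (log2 change 1.52, SE 0.19, adjusted p = 0.00013), called each time. Dbp, its close relative, was at 2.43 and 3.92 and then 16.2 and 25.1 (log2 change 2.37, SE 0.45, adjusted p = 0.00406), lost without P7 replicate 1 and without P28 replicate 2 (adjusted p up to 0.0805). Zbtb16, a zinc finger factor induced by glucocorticoid, was at 30.1 and 22.1 at P7 and 319 and 336 at P28, 12.5-fold higher (log2 change 3.61, SE 0.21, adjusted p = 6.97e-08). Of 13 glucocorticoid-responsive genes tested, 3 were called higher and none lower, or 2 without P7 replicate 1 and 1 without each of the other libraries. The other two, Fkbp5 and Tsc22d3, had log2 changes of 1.53 and 0.70. The call of Fkbp5 held only without P7 replicate 1, and Tsc22d3 was not called with any 1 library left out.

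Some stress genes rose. Of 25 heat shock and unfolded protein genes tested, 5 were called higher and none lower, or 7 without P7 replicate 1, 1 without P7 replicate 2, 1 without P28 replicate 1 and 3 without P28 replicate 2. Hspb1, a small heat shock protein, was at 4369 and 2872 at P7 and 10839 and 7299.9 at P28 (log2 change 1.33, SE 0.23, adjusted p = 0.002), called each time. Of 23 immediate early genes, 2 (8.70%) were called higher, Egr1 and Fos. The share was 4.87% over all genes tested and 7.42% over those with a mean of 200 or more. Egr1 was at 238 and 219 and then 461 and 463 (log2 change 1.02, SE 0.16, adjusted p = 0.000973), and Fos at 2189.8 and 1499 and then 3129 and 3326. The Fos call held only without P7 replicate 1 (adjusted p up to 0.253 otherwise).

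Ion and water transport shifted between members, and 1 of the 22 tested passed the filter only through the P28 libraries. Of 22 tested, 2 (9.09%) rose and 4 (18.2%) fell, against 4.87% and 2.41% over all genes tested. Fewer fell without P7 replicate 1 or without either P28 library. Scnn1a, the alpha subunit of the sodium channel that clears lung fluid, was at 782 and 731 at P7 and 1919 and 1497 at P28 (log2 change 1.16, SE 0.18, adjusted p = 0.000773), and Kcnn4, a calcium-activated potassium channel also found in leukocytes, at 1.31 and 0.560 and then 118 and 126 (log2 change 6.02, SE 0.57, adjusted p = 9.76e-06). The water channel gene Aqp1, which is abundant in endothelium, was at 66.1 and 41.1 at P7 and 3.86 and 4.61 at P28 (log2 change -3.35, SE 0.26, adjusted p = 1.46e-06). These 3 were called each time. The chloride channel and transporter genes Cftr, Slc26a9 and Ano1 were called lower, with log2 changes of -0.91, -1.002 and -0.89. The Ano1 call was lost without any 1 of the 4 libraries (adjusted p up to 0.138). That of Cftr held only without P7 replicate 1 (adjusted p up to 0.121 otherwise), and that of Slc26a9 was lost without P7 replicate 1 and without P28 replicate 2 (adjusted p up to 0.0925).

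No proliferation gene passed the limma threshold. None of 24 S phase genes and none of 24 mitosis genes was called by limma, with 0 and 2 at an unadjusted p below 0.05 and median log2 changes of -0.13 and -0.02, and edgeR called 1 mitosis gene lower and no S phase gene. Top2a, a topoisomerase of dividing cells, was at 66.3 and 63.5 at P7 and 96.9 and 55.6 at P28 (adjusted p = 0.867). Of 16 cell cycle inhibitor genes, Cdkn2b was called lower and Trp53inp1 higher (6.25% each). Over all genes tested, 2.41% were called lower and 4.87% higher. Cdkn2b was at 43.1 and 23.8 at P7 and 15.1 and 14.1 at P28 (log2 change -1.09, SE 0.28, adjusted p = 0.0266), and its call held only without P7 replicate 2. The Trp53inp1 call (log2 change 0.83) also held only without P7 replicate 2, and the log2 change was 0.51 without P7 replicate 1 (adjusted p = 0.396). The Trp53inp1 call was lost as well with no filter, with a replicate block, with only the 4 libraries of P7 and P28 and without the mean-variance trend of limma.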

How the data were processed

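Gene-level values of 10 epithelial libraries were used, 4 of them compared. The deposited signal values were normalised per library by the authors, with a method not given in sources used here. Bowtie2 2.2.5, R 3.4.0 and mm10 are named in the submitters' processing notes. Whole reads could be recovered from the low values for 100% of entries (tolerance 0.01). Genes with at least 3 in 2 of 10 libraries were fitted with limma 3.58.1 (R 4.3.3) on log2(value + 1), all 5 stages sharing the spread (5 residual degrees of freedom), with Benjamini-Hochberg adjustment and a threshold of 0.05. edgeR 4.0.16 and DESeq2 1.42.0 on recovered reads, other filters, scalings and pseudocounts, a replicate block and leaving out each library were alternatives. The fit was tested on reads simulated from the means at P7 and P28. There limma recovered 41 of 100 changes of 2-fold and 93 of 100 changes of 4-fold, and made 4 calls among 11943 unchanged genes. A gene that was not called may thus have changed 2-fold. Members and the 60 lists were chosen with earlier results of these data known. Named were the sort and sex-linked genes, the 15 largest called rises and falls with a mean of at least 50 and libraries that do not overlap (predicted genes left out), up to 6 called members of each list by p, defining markers, all members of lists of 12 or fewer, and the 5 most abundant genes per stage. A few further list members (among them Lyz1, Retnla, Slc38a4, Col4a1, Hspg2, Gsta1) were named after their values were seen. Some genes that the rule picks are not reported here. Gene positions are from GENCODE M21 and promoters from RefSeq. Tables and plots used Python 3.11.15, pandas 2.3.3 and matplotlib 3.10.9.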

Additional observations from a re-analysis of the deposited data

How the results depend on the processing

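The counts of calls depended on the libraries. Of the 175 named called genes, 97 were called under every one of the 16 alternatives that tested them. No sign changed, which carries no weight, since the P7 and P28 libraries of called genes do not overlap. The number lost was 57 without P7 replicate 1, 38 without P7 replicate 2, 45 without P28 replicate 1 and 66 without P28 replicate 2, and 41 without the mean-variance trend of limma. Leaving out a library gave 439 to 561 calls, 320 to 393 higher and 113 to 174 lower, with fewer samples in each fit. With only the 4 libraries of P7 and P28, 730 genes were called, 195 of them lower. Other settings kept the counts within 1.5 times: pseudocount 0.5 gave 867 calls and pseudocount 3 gave 930, no filter 818 and a filter of 10 gave 732, rescaling 961, TMM 939, edgeR 975, DESeq2 857 and limma without trend 678. The share of calls that were higher ran from 60.9% with the filter of 10 to 76.5% without P7 replicate 1. With the replicate number as a block, 885 genes were called, 852 of them shared. Deviations of same-numbered libraries correlated at -0.06 to 0.07 between stages, so no pairing across the genes tested was seen. Such a correlation over many genes cannot exclude a pairing that affects few of them. Depth limits low genes: 3 reads correspond to a value of 0.560 to 1.16 per library.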

Other observations

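The metabolic lists differed in the share of genes called, which was 4.87% higher and 2.41% lower over all genes tested. None of 32 respiratory chain genes and none of 20 fatty acid synthesis genes was called by limma or edgeR, with 0 and 2 at an unadjusted p below 0.05. Of 79 cytosolic ribosomal protein genes limma called none and edgeR 4 lower, with 7 at an unadjusted p below 0.05. Among 22 glycolysis genes, 2 (9.09%) rose. The hexokinase gene Hk2 was at 43.3 and 45.04 at P7 and 109.7 and 99.1 at P28 (log2 change 1.22, SE 0.21, adjusted p = 0.00209). The lactate exporter gene Slc16a3 was at 5.42 and 8.11 and then 43.2 and 47.8 (log2 change 2.60, SE 0.35, adjusted p = 0.000226). Pmvk, an enzyme of the mevalonate pathway, was the member of 23 cholesterol synthesis genes that was called, at 14.2 and 10.4 at P7 and 48.3 and 47.2 at P28 (log2 change 1.89, SE 0.26, adjusted p = 0.000293). In arginine metabolism 2 of 8 genes (25%) rose. Ass1, which makes argininosuccinate, was at 52.3 and 53.7 and then 227 and 178 (log2 change 1.90, SE 0.17, adjusted p = 6.48e-06), and Odc1, the first enzyme of polyamine synthesis, was at 306 and 267 at P7 and 692 and 664 at P28 (log2 change 1.24, SE 0.17, adjusted p = 0.0003). These 5 rises held without each of the 4 libraries in turn. In each gene both P28 libraries exceeded both P7 libraries, but the stages did not overlap in any called gene.

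The level of Xist differed within a stage. It was at 224 and 351 at P7 and at 12.7 and 322 at P28, so the P28 replicates stood further apart than the stages (adjusted p = 0.233). Ddx3y, on the Y chromosome, was at 14.9 and 13.4 at P7 and 16.6 and 13.5 at P28, present in all 4 libraries.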
